A study of Mus musculus with 23 samples.

Results

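Toll-like receptors are pattern recognition receptors of innate immune cells, and this account follows 10 genes of the family and its signalling partners through hippocampal microglia: *Tlr1*, *Tlr2*, *Tlr3*, *Tlr4*, *Tlr6*, *Tlr7*, *Tlr9*, *Tlr13*, the co-receptor *Cd14* and the adaptor *Myd88*. The members were listed by name, all 10 were among the 18876 genes of the deposited table, and all 10 were among the 18759 genes tested. CD11b+ cells had been isolated from both hippocampi of female mice by Percoll separation and magnetic sorting, and poly(A) RNA was sequenced as 1 library per sample. Every animal carried *Slc11a2* fl/fl and *Cx3cr1* Cre-ERT2+/- on a mixed 129S;C57BL/6J background, so that Cre was under the control of a gene expressed in microglia and other macrophages. The mice were either hemizygous for *APP/PS1*, a transgenic model of amyloid deposition in Alzheimer's disease, or WT littermates. *Slc11a2* encodes DMT1, an importer of ferrous iron. Mice labelled *Slc11a2*KD had been gavaged with tamoxifen (4 mg per day over 5 days) when 5 to 6 months old, Control mice had received 200 µL corn oil, and all were euthanized at 15 to 18 months. Tamoxifen and the knockdown therefore cannot be told apart in these groups. The groups were Control WT (n = 6), Control *APP/PS1* (n = 6 after removal of sample 0010, n = 7 with it), *Slc11a2*KD WT (n = 5) and *Slc11a2*KD *APP/PS1* (n = 5).

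The receptors fall into those on the cell surface and those in endosomes. At the surface, TLR2 pairs with TLR1 or with TLR6 to bind bacterial lipopeptides, and TLR4 binds lipopolysaccharide that CD14 hands over. In endosomes, TLR3 detects double-stranded RNA, TLR7 single-stranded RNA, TLR9 unmethylated CpG DNA and TLR13 a stretch of bacterial ribosomal RNA. MyD88 carries the signal of all of these receptors except TLR3 towards NF-kB, and also serves receptors of the interleukin-1 family. CD14, TLR2 and TLR4 have also been described as surface receptors for fibrillar amyloid-beta on microglia.

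The libraries held between 31128643 and 54872491 counts, and the members had between 952 and 45493 counts in each of the 22 samples, so that counting error was small beside the spread between animals. Markers of microglia dominated every library, with the 8 genes of the list summing to between 26960 and 41310 CPM (counts per 1000000 counts of the library, scaled by TMM). *Cd3e* was not detected and the other 3 T cell markers together reached at most 0.707 CPM. Genes of choroid plexus epithelium stood at 1926 CPM in Control WT 0012 and 994 CPM in Control WT 0015, against 1.09 to 5.34 CPM in the other Control WT samples. In the *Slc11a2*KD samples with library numbers 18 to 23 they summed to between 86.6 and 773 CPM, against 2.30 to 51.1 CPM in numbers 1 to 4. Library numbers 1 to 4 and 18 to 23 were all *Slc11a2*KD and numbers 5 to 17 all Control, so that library order and knockdown cannot be told apart. *Slc11a2* itself ran from 29.9 to 43.7 CPM in Control WT, from 39.99 to 48.2 in Control *APP/PS1*, from 27.1 to 38.1 in *Slc11a2*KD WT and from 37.8 to 75.1 in *Slc11a2*KD *APP/PS1*. No lower gene total passed the test in the samples labelled as knockdown (log2 fold change -0.04 in WT and 0.39 in *APP/PS1*), and the total was higher in *Slc11a2*KD *APP/PS1* than in *Slc11a2*KD WT (log2 fold change 0.72, adjusted p = 0.00209, edgeR). Because the deposited counts sum all exons of the gene, they do not separate the floxed exons, and this total does not check the recombination. The paper reports the knockdown from RT-qPCR over targeted exons in isolated microglia of all animals. It also reports lost expression of those exons in its RNA-seq reads.

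The sequences of the members bear on how they were measured and compared. *Tlr1* (chr5:65082022-65090941) and *Tlr6* (chr5:65108704-65203497) lie near each other on the minus strand of GRCm39, and their canonical GENCODE transcripts are identical over 229 bases of coding sequence, at chr5:65082880-65083108 in *Tlr1* and chr5:65111171-65111399 in *Tlr6*. Of all windows of 150 bases, the length of 1 read, 4.8% in *Tlr1* and 3.31% in *Tlr6* were found in the other transcript, within this stretch or a second one of 208 coding bases (chr5:65082634-65082841 in *Tlr1* and chr5:65110925-65111132 in *Tlr6*). The counting mode used by the study keeps reads that map to 1 place, so reads that lie within one of these stretches with both mates would be absent from both genes rather than split between them. On the same build, *Tlr2* lies at chr3:83743576-83749074 (minus strand, 3 exons), *Tlr4* at chr4:66745783-66849936 (plus strand, 3 exons), *Tlr3* at chr8:45848702-45864117 (minus strand, 7 exons), *Tlr9* at chr9:106099797-106104082 (plus strand, 2 exons) and *Myd88* at chr9:119165000-119170486 (minus strand, 6 exons), with *Tlr7* and *Tlr13* on the X chromosome. *Myd88* overlaps *Acaa1a* on the opposite strand. The longer shared stretch of *Tlr1* is printed because the contrast between these receptors is followed below. It is given from *Tlr1* with 20 flanking bases on each side (chr5:65082860-65083128, minus strand), and the capitals mark the 229 bases shared with *Tlr6*.
Tlr1 shared stretch: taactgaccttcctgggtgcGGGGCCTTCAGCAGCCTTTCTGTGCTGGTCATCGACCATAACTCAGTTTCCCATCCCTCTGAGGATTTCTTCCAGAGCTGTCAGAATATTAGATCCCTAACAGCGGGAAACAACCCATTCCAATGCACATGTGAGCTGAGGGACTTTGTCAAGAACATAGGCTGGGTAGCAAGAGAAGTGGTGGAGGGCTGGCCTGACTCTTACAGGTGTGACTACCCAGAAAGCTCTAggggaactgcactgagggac

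The promoters of *Tlr1*, *Tlr2* and *Tlr6* are shown because TLR2 pairs with either of the others and the transcript levels of the 3 genes did not move alike. The sequences are from RefSeq on GRCm38.p6, from 250 bases before to 50 bases after an annotated start, for 7 of the 10 members (9 promoters); *Tlr4*, *Tlr7* and *Cd14* had no entry. They were searched on both strands for PU.1 (GAGGAAGT), AP-1 (TGANTCA), the kappaB element of NF-kB and the interferon-stimulated response element (ISRE). The kappaB element was searched in a strict form and, added after the promoters were seen, in its usual looser consensus form, which includes every strict match. Capitals mark a match. Among all 32851 promoters of this length, 3.2% held the PU.1 letters, 7.81% AP-1, 1.47% the strict and 8.46% the looser NF-kB form, and 3.44% ISRE.
Tlr2 promoter, chr3:83841559-83841858, minus strand: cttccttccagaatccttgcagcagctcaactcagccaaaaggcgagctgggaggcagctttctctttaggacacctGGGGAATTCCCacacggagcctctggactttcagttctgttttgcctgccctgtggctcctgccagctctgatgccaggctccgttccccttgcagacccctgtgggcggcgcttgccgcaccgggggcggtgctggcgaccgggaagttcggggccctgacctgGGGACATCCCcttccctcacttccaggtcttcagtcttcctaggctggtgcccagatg
Tlr1 promoter, chr5:64933509-64933808, minus strand: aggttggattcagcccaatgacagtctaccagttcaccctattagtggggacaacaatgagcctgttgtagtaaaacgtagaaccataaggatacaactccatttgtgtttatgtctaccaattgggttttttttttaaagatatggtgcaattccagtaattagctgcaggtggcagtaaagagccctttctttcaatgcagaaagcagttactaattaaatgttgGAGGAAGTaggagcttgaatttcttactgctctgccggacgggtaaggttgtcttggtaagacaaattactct
Tlr6 promoter, chr5:64959117-64959416, minus strand: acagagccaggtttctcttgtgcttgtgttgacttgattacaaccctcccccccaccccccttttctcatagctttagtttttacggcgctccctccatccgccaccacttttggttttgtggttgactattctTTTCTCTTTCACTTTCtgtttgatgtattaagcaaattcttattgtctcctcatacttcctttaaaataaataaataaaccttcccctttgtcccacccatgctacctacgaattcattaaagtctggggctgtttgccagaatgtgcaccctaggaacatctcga
The *Tlr1* window held 1 PU.1 match, starting at position -23 from the annotated start. In the *Tlr6* window there were 2 overlapping ISRE matches from position -116. The *Tlr2* window held 3 matches to the looser NF-kB form, of which those at positions -173 and -172 overlap and the third starts at -8, and none to the other searched motifs. A second promoter of *Tlr1* and of *Tlr6* held none of the motifs. Among the other members, 1 match to NF-kB, in the strict form, was found for *Tlr3*, 1 to ISRE for *Myd88*, and 1 each to PU.1 and AP-1 for *Tlr9*. The *Tlr13* window had none. These are matches of letters and were not related to binding.

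Levels of the members were compared with each other as CPM per kilobase of canonical transcript, an approximation where several transcripts are used. In Control WT microglia, *Cd14* was highest at 259 ± 30.2 CPM per kilobase (SD, n = 6), followed by *Tlr2* at 106 ± 20.3, *Tlr7* at 67.5 ± 3.06 and *Tlr13* at 57.9 ± 8.07. *Myd88* stood at 32.9 ± 2.75, *Tlr4* at 28.7 ± 4.33 and *Tlr9* at 28.4 ± 2.96. The lowest were *Tlr3* at 18.7 ± 1.11, *Tlr1* at 15.97 ± 2.10 and *Tlr6* at 13.02 ± 2.39. In this order the sample ranges of neighbours did not overlap between *Cd14* and *Tlr2*, *Tlr2* and *Tlr7*, *Tlr13* and *Myd88*, or *Tlr9* and *Tlr3*, and they overlapped for the other neighbours. The first 5 places were held by the same genes in all 4 groups. *Tlr1* stood at place 9 in both WT groups and at place 6 in both *APP/PS1* groups. *Tlr6* held place 10 except in *Slc11a2*KD *APP/PS1*, where *Tlr3* was lowest at 10.3 ± 3.76 CPM per kilobase (SD, n = 5).

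The first comparison asked how the receptors differed between Control *APP/PS1* and Control WT mice, with no tamoxifen in either group. *Tlr2*, *Cd14* and *Tlr1* were higher in *APP/PS1* and *Tlr4*, *Tlr6* and *Myd88* were lower, while the endosomal receptors did not pass the test. So 3 of 10 members were called higher, beside 5.99% of all genes tested, and 3 were called lower, beside 4.48% (edgeR quasi-likelihood test, adjusted p-value under 0.05 over 18759 genes). In these bulk samples, fewer cells of a type and less RNA per cell cannot be told apart.

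*Tlr2* ran from 253 to 430 CPM in Control WT, with a median of 315, and from 496 to 811 CPM in Control *APP/PS1*, with a median of 637. No Control *APP/PS1* sample fell to the highest Control WT sample. The log2 fold change was 1.02 ± 0.16 (SE, adjusted p = 9.2e-05, edgeR), a 2.03-fold ratio of the means. Under 22 alternative settings (other tests, scalings, filters and samples) it ran from 0.93 to 1.12, with an adjusted p under the threshold in each.

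*Cd14* behaved in the same way. It lay between 356 and 501 CPM in Control WT (median 427) and between 614 and 866 CPM in Control *APP/PS1* (median 799), again with no overlap. The log2 fold change was 0.87 ± 0.13 (SE, adjusted p = 4.3e-05, edgeR) and ran from 0.76 to 0.93 over the same 22 alternatives, with an adjusted p under the threshold in each, so that *Cd14* would not be called if a log2 fold change over 1 were also required. *Tlr2* and *Cd14* were the 2 members with every *APP/PS1* sample above every WT sample, a pattern met by 5.33% of all genes tested.

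*Tlr1*, a partner of TLR2, showed a smaller difference. Its level was 38.1 to 56.7 CPM in Control WT (median 49.3) and 54.6 to 82.1 CPM in Control *APP/PS1* (median 66.8), and the groups overlapped by the lowest *APP/PS1* sample, 0007, and the highest WT sample, 0006. The log2 fold change was 0.49 ± 0.12 (SE, adjusted p = 0.00695, edgeR). Without Control WT 0012 and 0015, the samples with choroid plexus RNA, it was 0.40 with an adjusted p of 0.0603.

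*Tlr6*, the other partner, went the opposite way. It ran from 41.7 to 68.4 CPM in Control WT (median 58.1) and from 38.7 to 45.5 CPM in Control *APP/PS1* (median 43.9), and WT sample 0015, at 41.7 CPM, lay within the *APP/PS1* range. *Tlr6* fell by 0.40 on the log2 scale (SE 0.12, adjusted p = 0.0318, edgeR). Leaving out 1 of 6 single samples, Control WT 0006, 0008 or 0009 or Control *APP/PS1* 0007, 0011 or 0016, gave adjusted p-values from 0.0556 to 0.0884. *Tlr6* also overlaps *Fam114a1* on the opposite strand, and whether counting used strand is not given in the sources used here.

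*Tlr4*, the lipopolysaccharide receptor, was between 92.5 and 135 CPM in Control WT (median 126) and between 71.0 and 93.0 CPM in Control *APP/PS1* (median 87.6). Only Control WT 0014, at 92.5 CPM, reached into the *APP/PS1* range. *Tlr4* fell by 0.47 on the log2 scale (SE 0.14, adjusted p = 0.0287, edgeR). The call was lost on leaving out Control WT 0006, 0008, 0009 or 0012 or Control *APP/PS1* 0011 or 0016 (adjusted p from 0.0539 to 0.0732). It was also lost on leaving out 0012 and 0015 together, where the log2 fold change was -0.50 (adjusted p = 0.0598).

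*Myd88* was at 96.1 to 121 CPM in Control WT (median 110) and at 75.3 to 105 CPM in Control *APP/PS1* (median 79.0). Of the *APP/PS1* samples, 0017 at 105 CPM lay among the WT values. The adaptor fell by 0.39 on the log2 scale (SE 0.11, adjusted p = 0.0238, edgeR). The call was lost on leaving out Control WT 0009 or 0015 or Control *APP/PS1* 0005, 0007, 0011 or 0013 (adjusted p from 0.0516 to 0.0623). It was also lost with 0010 kept (log2 fold change -0.33, adjusted p = 0.0628) and without 0012 and 0015 together (-0.40, adjusted p = 0.0533).

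Among the endosomal receptors, *Tlr3* was 75.9 to 88.9 CPM in Control WT (median 80.1) and 56.3 to 65.5 CPM in Control *APP/PS1* (median 58.2). *Tlr9* was 84.4 to 110 CPM (median 102) against 52.8 to 83.9 CPM (median 70.2). Both were lower in every Control *APP/PS1* sample than in any Control WT sample, a pattern met by 3.03% of all genes tested, yet neither passed the test in the edgeR fit over all 4 groups. Their log2 fold changes were -0.44 ± 0.17 for *Tlr3* (SE, adjusted p = 0.0957, edgeR) and -0.49 ± 0.22 for *Tlr9* (SE, adjusted p = 0.179). Other settings called them. *Tlr3* passed by DESeq2 (adjusted p = 0.0289), by limma voom (0.00443), with at least 10 counts in every sample (0.0349), with a covariate for library numbers 18 to 23 (0.0161) and with only the compared groups in the fit (0.000599). No Control library has a number from 18 to 23, so the covariate left this fold change at -0.44 and changed only the estimated spread. *Tlr9* passed by limma voom (adjusted p = 0.0266), with an offset for length and GC content (0.042) and with only the compared groups (0.00905).

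*Tlr7* and *Tlr13* overlapped widely between the groups. *Tlr7* averaged 337 ± 15.3 CPM in Control WT and 358 ± 47.4 CPM in Control *APP/PS1* (SD, n = 6 each), a log2 difference of 0.08 with a 95% confidence interval from -0.24 to 0.40. For *Tlr13* the means were 262 ± 36.5 and 250 ± 21.6 CPM, and the interval ran from -0.41 to 0.28.

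**Figure D1:**
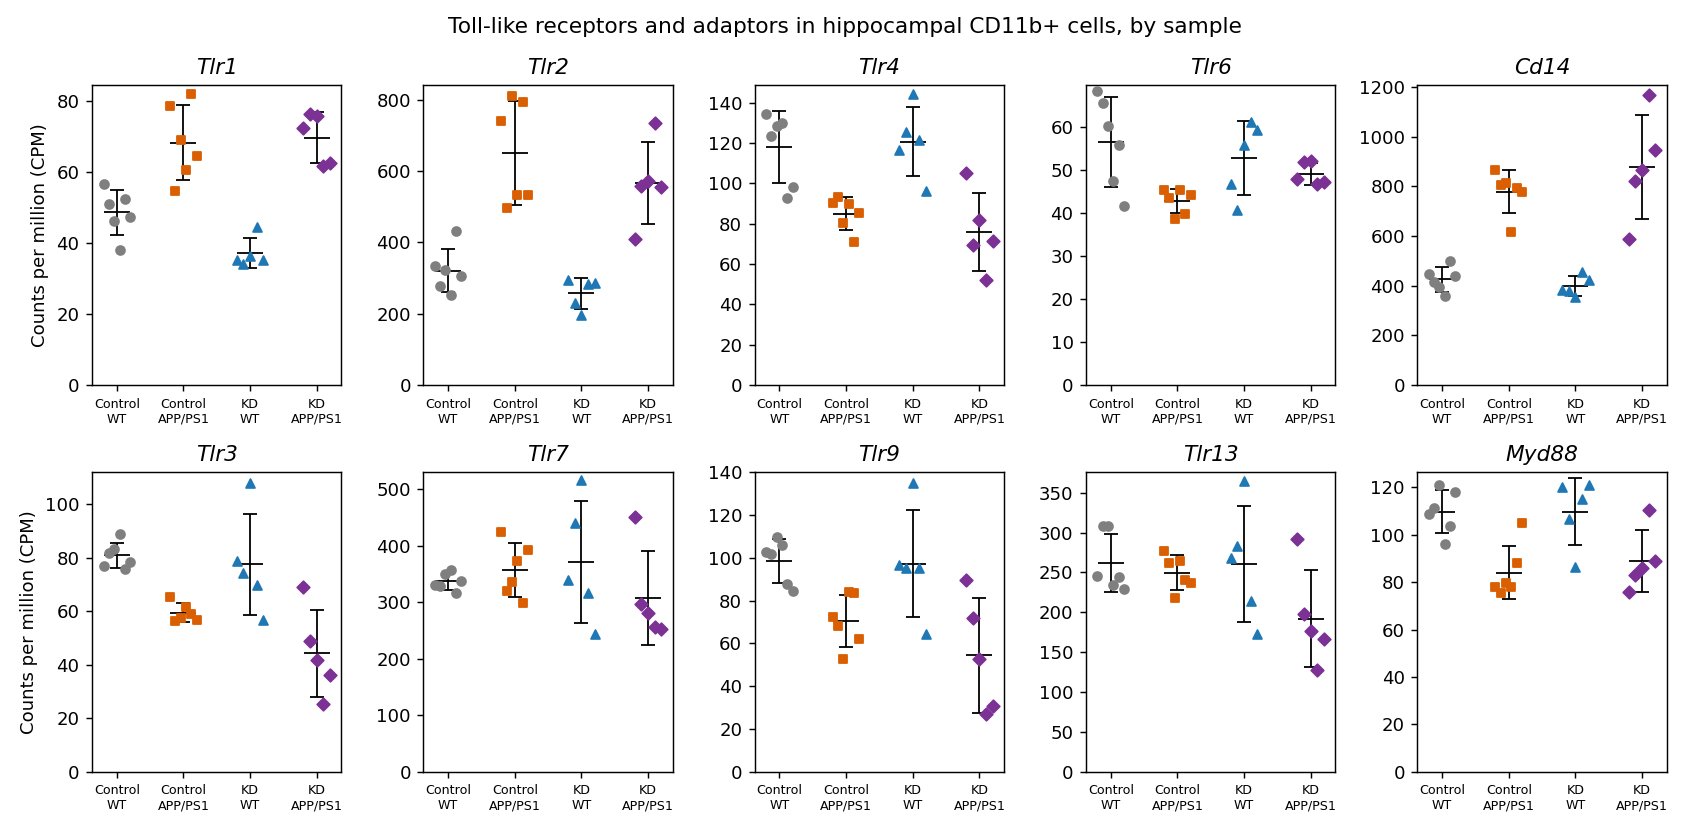
Level of each member in CPM in the 22 samples, 1 panel per gene with the surface receptors and *Cd14* in the upper row and the endosomal receptors and *Myd88* in the lower; points are samples, black lines the mean and SD, and KD stands for *Slc11a2*KD. *Tlr2*, *Cd14* and *Tlr1* are high in both *APP/PS1* groups, and the *Slc11a2*KD groups spread widely for *Tlr3*, *Tlr7*, *Tlr9* and *Tlr13*.

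Because a single scaling factor of a library cancels in the ratio of 2 of its genes, *Tlr1* over *Tlr6* and *Tlr2* over *Tlr4* were also read within each library. The length trend of a library, described below, does not cancel where the 2 genes follow it differently. Its correlation was -0.57 for *Tlr2* and 0.77 for *Tlr4*. The ratios are therefore not free of it. These ratios were chosen after the values were seen and carry no test. *Tlr1* counts were 0.765 to 1.14 times those of *Tlr6* in Control WT and 1.25 to 2.06 times in Control *APP/PS1*. In the *Slc11a2*KD groups the ratio was 0.594 to 0.836 in WT and 1.32 to 1.51 in *APP/PS1*. These are ratios of counts and not of levels per length, with 3046 bases in *Tlr1* and 4347 bases in *Tlr6*, and they serve to compare groups. The counts of *Tlr2* were 1.95 to 4.65 times those of *Tlr4* in Control WT and 5.33 to 11.2 times in Control *APP/PS1*. For the *Slc11a2*KD groups this ratio ran from 1.35 to 2.98 in WT and from 3.9 to 14 in *APP/PS1*. The 3.9 was in 0004 and the 14 in 0021, the libraries of that group with the highest and lowest length trend.

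**Figure D2:**
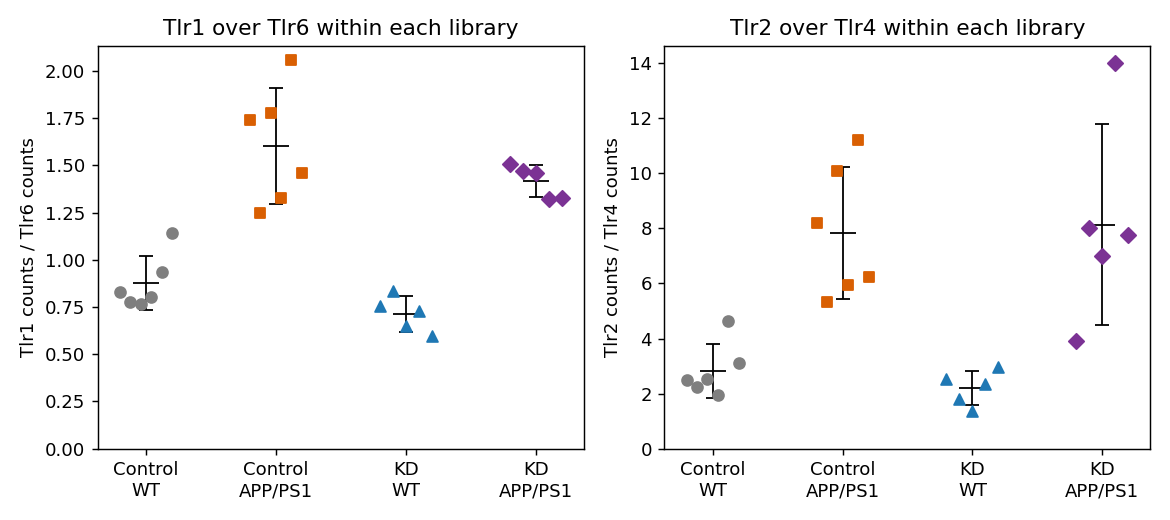
Ratio of *Tlr1* to *Tlr6* counts and of *Tlr2* to *Tlr4* counts within each of the 22 libraries, by group, with the mean and SD in black; KD stands for *Slc11a2*KD. In the left panel every *APP/PS1* library lies at 1.25 or above and every WT library at 1.14 or below.

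Markers of several cell types differed between these groups as well. The 6 markers of border-associated macrophages summed to 186 to 368 CPM in Control WT and 80.9 to 173 CPM in Control *APP/PS1*, the 5 monocyte markers to 33.1 to 78.2 against 14.2 to 33.7 CPM, and the 6 neutrophil markers to 86.1 to 312 against 17.3 to 90.1 CPM. None of these markers was at 0 throughout a group. The 8 microglia markers were also lower, at 35860 to 41150 CPM in Control WT and 26960 to 31070 CPM in Control *APP/PS1*. The 4 endothelial markers summed to 123 to 241 CPM in Control WT and 77.3 to 103 CPM in Control *APP/PS1*, and the 5 oligodendrocyte markers to 673 to 2739 against 308 to 905 CPM. The 5 astrocyte markers were higher in every Control *APP/PS1* sample, at 35.3 to 98.2 CPM against 6.74 to 13.8 CPM. The part of these cells in the lower levels of *Tlr4*, *Tlr6* and *Myd88* and in the higher levels of *Tlr2*, *Cd14* and *Tlr1* was not tested. Genes of the early response to handling overlapped between the groups, with sums of 6082 to 13350 CPM in Control WT and 7251 to 12680 CPM in Control *APP/PS1*.

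The second comparison asked what the knockdown did in WT animals. No member was called between *Slc11a2*KD WT and Control WT, and neither was any other gene (0 of 18759, 0%, edgeR quasi-likelihood test). At an unadjusted p under 0.05 there were 1110 genes (5.92%), while DESeq2 called 10 genes and limma voom 1, none of them a member. The 1 member under that unadjusted level was *Tlr1*. It stood at 35.3, 34.2, 36.4, 44.6 and 35.3 CPM in *Slc11a2*KD WT 0001, 0002, 0003, 0019 and 0022, so that 4 of the 5 samples lay below the Control WT range and 0019 lay inside it. The log2 fold change was -0.39 (95% confidence interval from -0.64 to -0.13, adjusted p = 0.715). *Tlr2* had a log2 fold change of -0.32 (interval from -0.66 to 0.03), and the other 8 members lay between -0.10 and 0.14. For *Myd88* the difference was -0.0003 with an interval from -0.24 to 0.24, and for *Cd14* it was -0.10 with an interval from -0.37 to 0.18.

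The third comparison asked what the knockdown did in *APP/PS1* animals, with the Control *APP/PS1* samples as reference. Again no member was called, nor any other gene (0 of 18759, 0%, edgeR quasi-likelihood test), with 3862 genes (20.6%) at an unadjusted p under 0.05. DESeq2 called 580 genes and limma voom 2, with no member among them. *Tlr3* and *Tlr13*, both endosomal, were the 2 of 10 members under the unadjusted level. *Tlr3* was at 68.9, 49.0, 41.8, 25.5 and 36.3 CPM in *Slc11a2*KD *APP/PS1* 0004, 0018, 0020, 0021 and 0023, and all of these except 0004 lay below the range of the 6 Control *APP/PS1* samples used, though not below the removed sample 0010 (29.5 CPM) except for 0021. Its log2 fold change was -0.42 (interval from -0.79 to -0.06, adjusted p = 0.207). *Tlr13* was at 292, 199, 177, 128 and 166 CPM in the same samples, with 0004 above the range of the 6 Control *APP/PS1* samples used and the others below it, while 0010 stood at 138 CPM. *Tlr13* had a log2 fold change of -0.38 (interval from -0.75 to -0.01, adjusted p = 0.233). With 0010 kept, *Tlr3* was at -0.32 (adjusted p = 0.595) and *Tlr13* at -0.28 (adjusted p = 0.61).

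Sample 0004 decided the count in this comparison. Without it, 3069 genes were called, *Tlr3* at a log2 fold change of -0.64 (adjusted p = 0.0202) and *Tlr13* at -0.58 (adjusted p = 0.0242) among them, the only members called. That made 2 of 10 members lower, beside 9.07% of all genes tested without 0004, and 0 higher, beside 7.34%. The other 4 samples of the group all have library numbers 18 to 23 and held choroid plexus markers at 86.6 to 483 CPM, against 2.30 CPM in 0004 and 1.30 to 5.39 CPM in Control *APP/PS1*, and the part of that RNA was not tested. With a covariate for library numbers 18 to 23, *Tlr3* stood at 0.03 and *Tlr13* at 0.15, both with the opposite sign, and 8 of the 10 members changed sign. No Control library has these numbers, and 0004 was the only *Slc11a2*KD *APP/PS1* library without them. The covariate fit thus leans on 0004 and on the shift between *Slc11a2*KD WT libraries. The surface receptors showed intervals that included 0. *Tlr2* was at 410, 559, 573, 735 and 555 CPM in *Slc11a2*KD *APP/PS1* 0004, 0018, 0020, 0021 and 0023, with 0004 below the Control *APP/PS1* range and the others within it (log2 fold change -0.20, interval from -0.54 to 0.14). For *Cd14* these samples had 587, 819, 866, 1167 and 944 CPM, with 0004 below and 0020, 0021 and 0023 above the Control *APP/PS1* range (log2 fold change 0.17, interval from -0.10 to 0.45). *Tlr6* lay at 46.7 to 52.1 CPM, above all 6 Control *APP/PS1* samples, a pattern met by 0.458% of all genes tested, but its log2 fold change of 0.20 did not pass (interval from -0.06 to 0.46, adjusted p = 0.372), and the removed sample 0010 stood at 50.4 CPM. *Tlr1*, *Tlr4*, *Tlr7*, *Tlr9* and *Myd88* had log2 fold changes from -0.38 to 0.08.

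**Figure D3:**
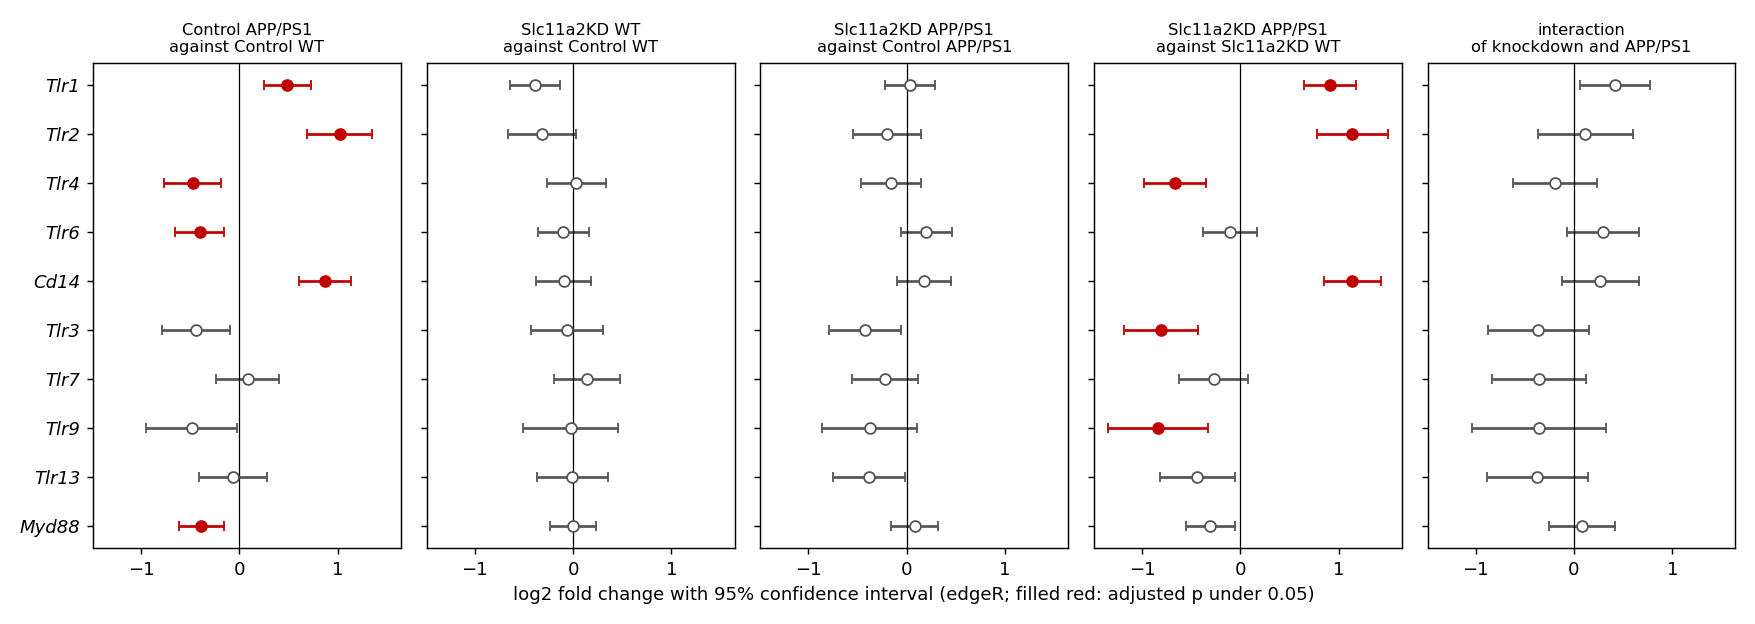
Log2 fold change of each member in the 4 comparisons and their interaction, with the 95% confidence interval, from 1 edgeR fit over 22 samples; filled red points passed an adjusted p-value of 0.05. Red points stand only in the 2 comparisons of *APP/PS1* with WT, 6 members in each.

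Within the *Slc11a2*KD groups the levels of several members moved with a property of the whole library. For each library, the slope of log2 CPM, relative to the mean of each gene over the 22 samples, on log2 transcript length was taken over 11866 genes with a mean of at least 1 CPM. This length trend was -0.49 in *Slc11a2*KD *APP/PS1* 0021, -0.43 in 0023, -0.25 in 0020, -0.11 in 0018 and 0.13 in 0004. In *Slc11a2*KD WT it was 0.31 in 0003, 0.24 in 0002, 0.14 in 0001, -0.06 in 0019 and -0.30 in 0022. Control WT libraries lay between 0.02 and 0.16 and Control *APP/PS1* libraries between -0.04 and 0.20. The members have transcripts of 1641 bases (*Cd14*) to 4996 bases (*Tlr7*), beside a median of 3282 bases.

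The endosomal receptors followed this trend. In *Slc11a2*KD *APP/PS1*, *Tlr3*, *Tlr9* and *Tlr13* were highest in 0004 and lowest in 0021, and *Cd14*, with the shortest transcript, was lowest in 0004 and highest in 0021. In *Slc11a2*KD WT, *Tlr3*, *Tlr7*, *Tlr9* and *Tlr13* were all highest in 0003 and lowest in 0022. As a description over the 22 samples, with group means removed, the Pearson correlation with the length trend was 0.89 for *Tlr3*, 0.89 for *Tlr7*, 0.83 for *Tlr9*, 0.93 for *Tlr13* and 0.77 for *Tlr4*. It was -0.57 for *Tlr2*, -0.67 for *Cd14* and -0.65 for *Myd88*, and near 0 for *Tlr1* (0.09) and *Tlr6* (-0.10), although *Tlr6*, at 4347 bases, is as long as *Tlr3*, at 4316 bases. Between members, measured in the same way, it was 0.90 for *Tlr3* with *Tlr9*, 0.74 for *Tlr2* with *Cd14* and -0.73 for *Tlr2* with *Tlr4*. The points share libraries, and the trend was itself computed from genes of the same libraries. The part of the trend in the differences between groups was not tested beyond a fit that includes an offset. With an offset for length and GC content in the fit, the log2 fold changes of the third comparison were -0.29 for *Tlr3*, -0.21 for *Tlr13*, 0.0034 for *Tlr7* and -0.10 for *Cd14*, the last 2 with the opposite sign.

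**Figure D4:**
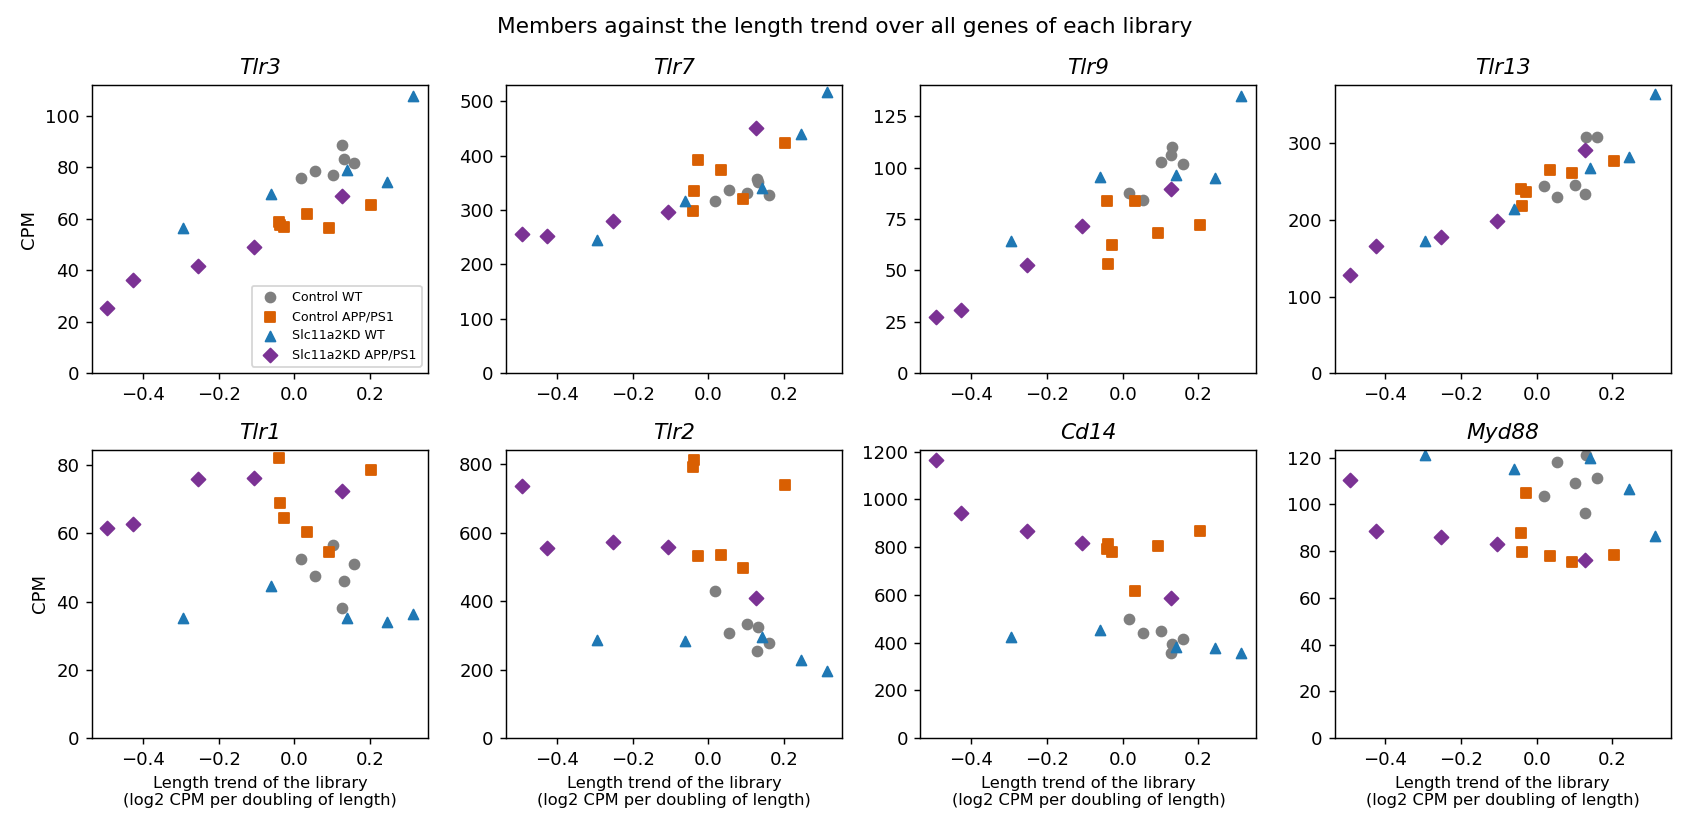
CPM of 8 members against the length trend of each of the 22 libraries, the change of log2 CPM per doubling of transcript length; colours and shapes mark the 4 groups. *Tlr3*, *Tlr7*, *Tlr9* and *Tlr13* climb from left to right across groups. *Cd14* lies higher in every *APP/PS1* library than in any WT library, and *Tlr1* and *Tlr2* mostly lie higher in *APP/PS1*, with some overlap.

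The fourth comparison set *Slc11a2*KD *APP/PS1* against *Slc11a2*KD WT, where all animals had received tamoxifen. *Tlr2*, *Cd14* and *Tlr1* were again higher in *APP/PS1*, and *Tlr3*, *Tlr4* and *Tlr9* were lower. That made 3 of 10 members higher, beside 9.77% of all genes tested, and 3 lower, beside 6.41%. Border-associated macrophage markers were at 210 to 450 CPM in *Slc11a2*KD WT and 109 to 156 CPM in *Slc11a2*KD *APP/PS1*, microglia markers at 36750 to 41310 against 30020 to 33610 CPM, and astrocyte markers at 5.6 to 16.5 against 37.7 to 124 CPM, with no overlap in any of these lists. Oligodendrocyte markers summed to 940 to 3554 against 490 to 1205 CPM and endothelial markers to 104 to 213 against 68.8 to 107 CPM. Monocyte markers (32.9 to 61.0 against 16.6 to 64.9 CPM) and neutrophil markers (94.2 to 490 against 39.2 to 137 CPM) overlapped. So did genes of the early response to handling (5525 to 11570 against 6201 to 10250 CPM). The part of these markers in the result was not tested. The comparison shares no samples with the first but shares its groups with both comparisons of the knockdown.

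*Tlr2* was at 294, 229, 195, 284 and 286 CPM in *Slc11a2*KD WT 0001, 0002, 0003, 0019 and 0022, all below the 410 CPM of the lowest *APP/PS1* sample. The log2 fold change was 1.14 ± 0.18 (SE, adjusted p = 9.38e-05, edgeR). *Cd14* was at 381, 378, 356, 454 and 421 CPM in the same WT samples, again below every *APP/PS1* sample, with a log2 fold change of 1.14 ± 0.14 (SE, adjusted p = 5.74e-06). *Tlr1* was at 72.3, 76.2, 75.8, 61.7 and 62.7 CPM in *Slc11a2*KD *APP/PS1* 0004, 0018, 0020, 0021 and 0023, above the 44.6 CPM of the highest WT sample, with a log2 fold change of 0.91 ± 0.13 (SE, adjusted p = 3.27e-05). These 3 members had no overlap between the groups, as did 4.18% of all genes tested in that direction. The adjusted p of all 3 was under the threshold in each of 20 alternatives, with log2 fold changes from 0.98 to 1.23 for *Tlr2*, from 0.77 to 1.25 for *Cd14* and from 0.76 to 0.99 for *Tlr1*. The lowest value of *Cd14* was the one with the offset for length and GC content.

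The lower members all overlapped between these groups, and 0 of them met the pattern of full separation found in 2.88% of all genes tested. *Tlr3* was at 78.9, 74.3, 108, 69.8 and 56.6 CPM in *Slc11a2*KD WT 0001, 0002, 0003, 0019 and 0022, and *APP/PS1* sample 0004, at 68.9 CPM, was the only one of its group inside that range. *Tlr3* fell by 0.81 on the log2 scale (SE 0.18, adjusted p = 0.00417, edgeR). *Tlr4* was at 116, 125, 144, 122 and 96.0 CPM in the WT samples and at 105, 69.6, 81.7, 52.3 and 71.4 CPM in the *APP/PS1* samples, with 0004 again inside the WT range. It fell by 0.67 (SE 0.15, adjusted p = 0.00427).

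*Tlr9* varied most. It was at 96.6, 95.01, 135, 95.3 and 64.2 CPM in the WT samples and at 89.7, 71.7, 52.5, 27.1 and 30.6 CPM in the *APP/PS1* samples 0004, 0018, 0020, 0021 and 0023, the first 2 of which lay inside the WT range. *Tlr9* fell by 0.84 on the log2 scale (SE 0.25, adjusted p = 0.0215, edgeR). The call was lost without *Slc11a2*KD WT 0003 or without *Slc11a2*KD *APP/PS1* 0021 or 0023 (adjusted p from 0.0643 to 0.0801), and with the covariate for library numbers 18 to 23 (-0.61, adjusted p = 0.0832). With 0001 to 0004 left out, *APP/PS1* 0018, 0020, 0021 and 0023 were set against WT 0019 and 0022 only, with the Control libraries kept in the fit. There *Tlr3* (-0.76, adjusted p = 0.0145) and *Tlr4* (-0.70, adjusted p = 0.0258) remained called and *Tlr9* (-0.84, adjusted p = 0.0992) did not. With the offset for length and GC content the 3 log2 fold changes were -0.60, -0.44 and -0.76, each past the threshold. With only the 2 compared groups in the fit none of the 3 passed, at adjusted p-values of 0.0862 for *Tlr3*, 0.0611 for *Tlr4* and 0.145 for *Tlr9*.

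*Tlr7*, *Tlr13*, *Tlr6* and *Myd88* were not called. Their log2 fold changes were -0.27 (adjusted p = 0.288), -0.44 (0.105), -0.10 (0.653) and -0.30 (0.0857, all edgeR). Without sample 0004, *Tlr7* (-0.45, adjusted p = 0.035) and *Tlr13* (-0.64, adjusted p = 0.0075) passed. *Tlr13* also passed by limma voom (adjusted p = 0.0152) and without *Slc11a2*KD WT 0022 (0.0258). Its difference was smaller with the library covariate (-0.16, adjusted p = 0.554), without 0001 to 0004 (-0.24, 0.456) and with the length and GC offset (-0.27, 0.2, all edgeR). *Myd88* passed by limma voom (adjusted p = 0.0424), with the library covariate (0.0396), without *Slc11a2*KD WT 0003 (0.0412) and without *Slc11a2*KD *APP/PS1* 0021 (0.0297). With the length and GC offset *Tlr7* stood at 0.0006 and *Tlr6* at 0.04.

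Whether the difference between *APP/PS1* and WT changed with the knockdown was tested as an interaction in the same fit. No member passed, nor did any other gene (0 of 18759, 0%, edgeR quasi-likelihood test), with 1703 genes (9.08%) at an unadjusted p under 0.05 and with 25 calls by DESeq2 and 1 by limma voom, none a member. *Tlr1* was the 1 member under the unadjusted level, at 0.42 on the log2 scale (interval from 0.06 to 0.78, adjusted p = 0.544). For *Tlr2* the interval ran from -0.37 to 0.60, for *Cd14* from -0.12 to 0.66 and for *Tlr4* from -0.62 to 0.23. The widest was that of *Tlr9*, from -1.03 to 0.33. That *Tlr6* and *Myd88* passed only in Control mice and *Tlr3* and *Tlr9* only after knockdown is thus not a difference shown by the test (interaction adjusted p of 0.55, 0.876, 0.57 and 0.674).

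The remaining genes of the pathway were taken from lists by role. Of the other 4 receptors of the family, 2 were lower in Control *APP/PS1* against Control WT, beside 4.48% of all genes tested, and 1 in *Slc11a2*KD *APP/PS1* against *Slc11a2*KD WT, beside 6.41%. *Tlr5*, the flagellin receptor, fell by 1.33 (log2) in Control *APP/PS1* (8.82 ± 2.57 against 22.2 ± 4.01 CPM, SD, n = 6 each, adjusted p = 0.00212) and by 1.38 in *Slc11a2*KD *APP/PS1* (6.82 ± 3.14 against 17.8 ± 6.99 CPM, n = 5 each, adjusted p = 0.00322, both edgeR). *Tlr8*, another sensor of single-stranded RNA, fell by 1.66 in Control *APP/PS1* (2.19 ± 1.15 against 6.90 ± 3.36 CPM, adjusted p = 0.01) and was not called in *Slc11a2*KD *APP/PS1* against *Slc11a2*KD WT (log2 fold change -0.96, adjusted p = 0.143). *Tlr11* and *Tlr12* were not called.

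Of 10 co-receptors and chaperones, 2 were higher and 3 lower in Control *APP/PS1* against Control WT, beside 5.99% and 4.48% of all genes tested, with a median log2 fold change of -0.16 beside -0.02. *Cd180* and *Ly86*, which form a complex that modulates TLR4, rose by 0.58 and 0.59 (adjusted p = 0.0211 and 0.0135, edgeR). *Cd36*, a scavenger receptor that assists TLR2 with TLR6, fell by 1.54 (log2) in Control *APP/PS1* (9.75 ± 2.57 against 28.4 ± 3.66 CPM) and by 1.76 in *Slc11a2*KD *APP/PS1* (10.6 ± 4.81 against 35.6 ± 3.15 CPM), without overlap in either. *Lbp*, which binds lipopolysaccharide in serum, fell by 5.61, but its Control WT mean of 4.55 ± 7.42 CPM was smaller than its SD. The remaining lower gene, named after its values were seen, was *Unc93b1*, the chaperone that brings the nucleic acid receptors to endosomes, which fell by 0.31 (955 ± 62.4 against 1186 ± 74.7 CPM, adjusted p = 0.014). *Ly96*, the TLR4 partner MD-2, was not called by edgeR in any comparison before alternative settings were applied. It passed in Control *APP/PS1* against Control WT with the offset for length and GC content (-0.54, adjusted p = 0.0141) and in *Slc11a2*KD *APP/PS1* against Control *APP/PS1* without 0004 (0.75, adjusted p = 0.0216). In *Slc11a2*KD *APP/PS1* against *Slc11a2*KD WT, *Cd36*, which was lower, was the 1 of 10 called, beside 6.41% of all genes tested (median -0.21, beside -0.07).

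None of the other 5 adaptors, which include the TRIF gene *Ticam1* of the TLR3 pathway, was called by edgeR in any comparison before alternative settings were applied. *Tirap* and *Pik3ap1* passed under some alternatives in *Slc11a2*KD *APP/PS1* against *Slc11a2*KD WT, with adjusted p-values of 0.0162 and 0.00537 without 0004. *Tirap* also passed there with at least 10 counts in every sample (-0.72, adjusted p = 0.039, edgeR). *Pik3ap1* also passed in *Slc11a2*KD *APP/PS1* against Control *APP/PS1* without 0004 (-0.82, adjusted p = 0.0202, edgeR). Among 16 kinases and ubiquitin ligases, 1 was called in Control mice, *Ikbkb*, an activating kinase of NF-kB, which rose by 0.57 (adjusted p = 0.00993, edgeR, list median 0.02), beside 5.99% of all genes tested. In *Slc11a2*KD mice 1 rose and 4 fell (median -0.43), beside 9.77% and 6.41% of all genes tested and a median of -0.07. *Tab2* fell by 1.00 on the log2 scale, *Traf6* by 0.64 and *Chuk* by 0.46, while *Ikbkb* rose by 0.47 (adjusted p from 0.00599 to 0.0499). Of 8 transcription factors, *Nfkb1* alone was called in *Slc11a2*KD *APP/PS1* against *Slc11a2*KD WT, lower by a log2 fold change of -0.66 (adjusted p = 0.0155), beside the same 6.41%, and 0 were called in Control mice. Among 14 inhibitors, 1 was lower in Control *APP/PS1*, beside 4.48% of all genes tested, which was *Sigirr* (log2 fold change -1.81, adjusted p = 0.00304). In *Slc11a2*KD *APP/PS1* 1 was higher, beside 9.77%, which was *Tnip2* (0.59, adjusted p = 0.0341).

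Among target genes of the pathway, the log2 fold change was positive for 14 of 20 in Control *APP/PS1* against Control WT, beside 9045 of all 18759 genes tested, and for 16 of 20 in *Slc11a2*KD *APP/PS1* against *Slc11a2*KD WT, beside 8681. Of 20 targets, 3 were higher and 1 was lower in Control *APP/PS1*, with a median log2 fold change of 0.61, where 5.99% and 4.48% of all genes were called and the median over all genes was -0.02. *Ptgs2*, the inducible cyclooxygenase, rose by 2.14, and the chemokines *Cxcl2* and *Ccl3* by 1.25 and 1.11, while *Ccl2* fell by 1.00 on the log2 scale (adjusted p from 0.00216 to 0.0491, edgeR). In *Slc11a2*KD *APP/PS1* against *Slc11a2*KD WT, 7 of 20 were higher and 0 lower, with a median of 1.06, beside 9.77% and 6.41% of all genes and a median of -0.07. *Cxcl1* rose by 2.45, the cytokine *Il1b* by 2.34, *Cxcl2* by 2.04 and *Ccl3* by 1.63 (adjusted p from 0.00279 to 0.0435). The other 3, named after their values were seen, were *Ptgs2* (1.61), *Il6* (1.57) and *Tnf* (1.05). *Il1b* varied widely, with 307 ± 277 CPM against 60.7 ± 39.9 CPM (SD, n = 5 each). Over all lists, 77 genes were tested and 0 were called for the knockdown in WT, for the knockdown in *APP/PS1* or for the interaction (edgeR), with 3, 18 and 6 at an unadjusted p under 0.05. For the knockdown in *APP/PS1* their median log2 fold change was -0.25, beside 0.01 over all genes tested, and 22 of 77 were positive, beside 9512 of 18759. Of the 16 kinases and ubiquitin ligases 1 was positive (median -0.40), and of the 10 co-receptors and chaperones 6 had an unadjusted p under 0.05, beside 20.6% of all genes. This count of 0 also rested on 0004. Without that sample 3 of the 77 were higher and 13 lower, beside 7.34% and 9.07% of all genes tested, and 6 of the 13 were kinases or ubiquitin ligases. DESeq2 called 1 higher and 3 lower in the 22 samples. With the covariate for library numbers 18 to 23, 0 were called, 40 of 77 were positive and the median of the kinases and ubiquitin ligases was 0.04. That fit leans on 0004 in the same way as for the members.

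The genes whose pattern was most like each member were found by the Pearson correlation of log2 CPM over the 22 samples, among 7897 genes with a mean of at least 10 CPM. The points share libraries and groups, so the values are a description. For *Tlr2* they were *Hcar2* (0.96), *C3ar1* (0.93) and *Cd274* (0.93). For *Cd14* they were *Gyg1*, *Cd63* and *Ramp1* (all 0.96), and for *Tlr1* *Oas1a*, *Stard4* (both 0.91) and *Chst2* (0.89). *Tlr4* was most like *Slco2b1* (0.97), *Gm57137* (0.94), a non-coding gene that overlaps *Tlr4* on its strand, and *Wdfy2* (0.94). *Tlr3* was closest to *Rap1gds1* (0.99), *Adam10* and *Slc7a8* (both 0.97), and 199 genes reached 0.9 or more with it. *Tlr9* was most like *Adam10* (0.98), *Itgav* and *Sall1* (both 0.97). *Tlr13* was most like *Rptor*, *Trio* (both 0.96) and *Abca9* (0.95), and *Tlr7* like *Jade2* (0.89), *Polg* and *Marf1* (both 0.88). *Myd88* was closest to *Akirin2* (0.92), *Rap2c* and *Cmtm7* (both 0.91). *Tlr6* had the loosest matches, *Tmem168*, *Gid8* and *Rnf139*, at 0.77 to 0.79.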

How the data were processed

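The authors trimmed the paired reads with Trim Galore 0.6.7, aligned them to mm39 with STAR using the GENCODE annotation, and deposited a table of whole-number counts per gene, which was used here, and a table of normalized values (signal scaled by DESeq2 1.36.0), which was not. Whether counting used strand is not given in the sources used here. The study gives 5 to 6 mice per group, and p-values measure the spread between these samples. Control *APP/PS1* 0010 was left out, as in the study, which gave 22 samples.

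Of 18876 genes, the 18759 that reached 5 counts in 3 or more samples were tested. All 4 groups entered 1 quasi-likelihood fit in edgeR 4.0.16 (R 4.3.3) with TMM scaling, and p-values were two-sided and adjusted by Benjamini-Hochberg over all genes tested, with a threshold of 0.05. Standard errors were derived from the log2 fold change and its F statistic. CPM were computed with TMM library sizes, and correlations used log2 CPM with a prior count of 2. Exon length and GC content came from GENCODE transcripts on GRCm39 for 18731 genes. The comparisons share groups, so they are not independent of each other. Depth per sample was 31128643 to 54872491 counts.

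The alternatives were DESeq2 1.42.0, voom with quality weights in limma 3.58.1, DESeq2 size factors in edgeR, no gene filter, at least 10 counts in every sample, a minimum absolute log2 fold change of 1, only the compared groups in the fit, 0010 kept, a covariate for library numbers 18 to 23 (none of them Control), an offset for length and GC content, each sample left out in turn, and samples with choroid plexus RNA left out. For the fourth comparison, *Slc11a2*KD libraries 0001 to 0004 were also left out, with the Control libraries kept in the fit. The members, lists and tests were chosen with earlier results of these data known. All 10 members were named. Of each pathway list, at most 4 genes past the threshold were named per comparison, by size of change. Summed marker levels of other cell types are given for the comparisons of *APP/PS1* with WT, and those of choroid plexus for the knockdown. Comparisons computed by the authors were not used.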

Additional observations from a re-analysis of the deposited data

Results flagged for a closer look

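In groups of 5 or 6 samples, 3 of 40 sets of member levels held 1 sample far from the others of its group by Dixon's criterion, which chance meets in about 1 of 20 sets. *Tlr1* stood at 44.6 CPM in *Slc11a2*KD WT 0019, where the other samples of the group had 34.2 to 36.4 CPM. *Tlr7* stood at 451.7 CPM in *Slc11a2*KD *APP/PS1* 0004, against 253 to 297 CPM in the other samples of that group. *Cd14* stood at 614.2 CPM in Control *APP/PS1* 0013, below the 778 to 866 CPM of the other 5 samples and above every Control WT sample.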

How the results depend on the processing

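Apart from the minimum log2 fold change of 1, *Tlr2* and *Cd14* kept an adjusted p under the threshold in both comparisons of *APP/PS1* with WT under every alternative run (22 in Control and 20 in *Slc11a2*KD mice), and *Tlr1* under all but 1 (without Control WT 0012 and 0015, in Control mice). Over all member results and alternatives, 1036 kept their direction and side of the threshold, 30 lost the call, 18 gained it and 46 changed sign. The causes were not tested.

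For Control *APP/PS1* against Control WT, 1965 genes were called, against 918 with a log2 fold change over 1, 3421 by limma voom, 3241 with only the compared groups and 1282 without Control WT 0012 and 0015, and 1561 to 1969 with 1 sample left out. With a log2 fold change over 1, 1 member, *Tlr2*, was higher and 0 were lower. The number of lower members was 5 by limma voom and with only the compared groups, 1 without 0012 and 0015, and 0 to 3 with 1 sample left out, 0 of them without Control WT 0009 or Control *APP/PS1* 0011. With 0010 kept, *Tlr7* stood at -0.0053. For *Slc11a2*KD *APP/PS1* against *Slc11a2*KD WT, 3034 genes were called, against 1105 with a log2 fold change over 1, 1773 with the library covariate, 1041 with only the compared groups, 861 with 0001 to 0004 all left out, and 1977 to 4781 with 1 sample left out, the highest without 0004. With a log2 fold change over 1, *Tlr2* and *Cd14* were the 2 higher members and *Tlr1*, at 0.91, was not called. The number of lower members was 0 with that limit, 5 by limma voom, 0 with only the compared groups, and 2 to 5 with 1 sample left out. *Tlr6* stood at 0.0228 by limma voom and 0.0428 with the offset for length and GC content, and *Tlr7* at 0.0006 with the offset.

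For *Slc11a2*KD WT against Control WT, DESeq2 called 10 genes, limma voom 1, the fit without Control WT 0012 and 0015 and *Slc11a2*KD WT 0019 and 0022 called 2, and leaving out 1 sample called 0 to 1. With the library covariate *Tlr3* stood at 0.17, *Tlr9* at 0.23 and *Tlr13* at 0.25. Without those 4 samples they stood at 0.12, 0.10 and 0.13. *Tlr13* was 0.0401 by limma voom and *Myd88* 0.0057 with the offset. For *Slc11a2*KD *APP/PS1* against Control *APP/PS1*, DESeq2 called 580 genes, limma voom 2, and leaving out 1 sample gave 0 to 3069 genes and 0 to 2 lower members, the highest of both without 0004. With the library covariate *Tlr1* stood at -0.0304, *Tlr3* at 0.0317, *Tlr4* at 0.13, *Tlr7* at 0.29, *Tlr9* at 0.10, *Tlr13* at 0.15, *Cd14* at -0.18 and *Myd88* at -0.10. With the offset *Tlr7* was 0.0034 and *Cd14* -0.10. For the interaction, DESeq2 called 25 genes, limma voom 1, and leaving out 1 sample gave 0 to 1. With the library covariate *Tlr2* stood at -0.0425 and *Myd88* at -0.0063.

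Leaving out 1 sample also changed the sign of small values. The lowest and highest log2 fold changes for the knockdown in WT were -0.21 and 0.0206 for *Tlr3*, -0.0371 and 0.0935 for *Tlr4*, -0.0087 and 0.24 for *Tlr7*, -0.17 and 0.0827 for *Tlr9*, -0.16 and 0.10 for *Tlr13* and -0.0523 and 0.0746 for *Myd88*. For the knockdown in *APP/PS1* they were -0.0416 and 0.0914 for *Tlr1* and -0.0244 and 0.15 for *Myd88*. For the interaction they were -0.0102 and 0.16 for *Myd88*. No paired analysis was possible because the sample labels give neither litter nor cage. Every member had at least 952 counts in every sample, and the part of depth was not tested.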
